A study of Mus musculus with 20 samples.

Results

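The genes of the major histocompatibility complex (MHC), which the mouse carries on chromosome 17 as the H-2 complex, were followed in the gut of Spdef knockout (KO) and wild type mice. Members were all non-control array probes whose gene name began with H2-, with the probes for B2m and Cd74. The rule took 58 of 41174 probes, under 36 gene names. Of these, 46 probes under 25 names were well above background on every array of at least 1 group and genotype, and they were tested among 24896 such probes. They comprised 28 probes for class I heavy chains (3 of them for the classical gene H2-K1), 3 for the class I light chain B2m and 13 for class II chains and loading factors. The last 2, H2-Ke2 and H2-Ke6, name neighbours of the complex that encode no MHC chain. The 12 probes left out were those of H2-Ea, H2-M1, H2-M9, H2-M10.1, H2-M10.3, H2-M10.4, H2-M10.5, H2-M10.6, H2-M11, H2-DMb2 and H2-Ob and 1 of the 2 H2-T24 probes. Ciita also belongs to the rule, but no probe carried that name. A probe under the older name C2ta is given beside the members and not counted with them.

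RNA came from whole small intestine or whole colon of mice with (wild type) or without (KO) Spdef, taken as adults at postnatal day 30 or as fetuses at E18.5. Each pool held 2 to 3 littermates. A KO pool and a wild type pool of the same tissue and stage were hybridized together on a 2-colour Agilent array and again with the dyes exchanged. This gave 2 pairs of pools for adult small intestine, 3 for adult colon, 3 for fetal small intestine and 2 for fetal colon, on 20 arrays. The KO pools lacked Spdef, an ETS-family transcription factor of secretory epithelial cells, and the wild type pools carried it. The labels give no strain and do not say which pools of different tissues came from the same animals. In whole organs, fewer cells of a type and less RNA per cell cannot be told apart.

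Class I molecules pair a heavy chain with B2m and present peptides from inside the cell to CD8+ T cells. Class II molecules, made of an alpha and a beta chain and loaded with the help of Cd74 and the DM proteins, present peptides from ingested material to CD4+ T cells. Classical class I genes are expressed by nearly all cells and non-classical ones (the Q, T and M genes) in narrower patterns, several of them in gut epithelium. Class II genes are expressed by B cells, dendritic cells and macrophages, and in the gut also by small-intestinal enterocytes. Interferons induce both classes. Spdef itself lies on chromosome 17, so that a KO allele brings a linked stretch of chromosome with it. The member probes on chromosome 17 lay 6.11 to 9.44 Mb from the Spdef probe at chr17:27442294-27442353 (build mm8), while B2m lies on chromosome 2 and Cd74 on chromosome 18.

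Spdef signal was lower in the KO on 20 of 20 arrays, by log2 ratios of -4.09 to -1.20 (limma, adjusted p = 0.000831 over the 4 groups). Pair 3 of fetal small intestine and pair 1 of fetal colon, which shared a slide, went against their tissue labels. In wild type pools, the log2 signal of Apoa4, an enterocyte lipoprotein, was 9.62 in the pool labelled fetal small intestine 3 and 16.92 in the one labelled fetal colon 1. Hoxb13, a hindgut gene, was at 11.64 and 6.99 in those same pools. Both pairs keep their labels here. Many results that rest on them are also given without that slide, and where no such value stands, the slide is included. Fetal small intestine pairs 1 and 2 differed by less than the noise between arrays and count as 1 replicate, which leaves 9 replicates. In adult colon pair 1, the first array had 3138 of 24896 probes more than 4-fold below the median of the other adult colon arrays, against 0 to 36 on those. The sex composition of the fetal pools moved with genotype. The log2 KO over wild type ratio of Y-linked Eif2s3y was 3.60, 4.34 and 3.52 in fetal small intestine pairs 1 to 3, and that of Xist was 3.44 and 4.60 in fetal colon pairs 1 and 2.

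Class I probes changed in the adult KO gut, in both directions. No class II probe passed the test in any group, which at the shares below does not set class II apart from all probes. In adult small intestine, 5 of 46 member probes rose and 1 fell, 13% of the members, against 0.366% of all probes tested. In adult colon, 2 rose and 9 fell, 23.9% of the members, against 7.88% of all probes. No member passed in fetal small intestine, where 0.366% of all probes passed. There 0 members were under an unadjusted p of 0.05, against 7.11% of all probes. None passed in fetal colon either, where 0.233% of all probes passed. There 10 members were under an unadjusted p of 0.05, against 5.72% of all probes. With fetal colon fitted alone, 7 members passed there (2 higher and 5 lower in the KO), against 0.723% of all probes. That fit had 2 replicates of opposite tissue profile, and the sex composition of their pools moved with genotype. Over the mean of the 4 groups, 3 probes rose and 4 fell, 15.2% of the members, against 1.33% of all probes.

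These counts changed when single pairs were left out. How many of all probes passed was not counted in those fits, so a general loss of calls cannot be told apart. Adult small intestine had 2 replicates, and 0 members passed without pair 1, 2 without pair 2, 1 without adult colon pair 1 and 3 without either fetal colon pair. In adult colon, 1 member passed without pair 1, 6 without pair 2 and 7 without pair 3. Over the mean, 1 member passed without fetal colon pair 1, 3 without fetal colon pair 2 and 11 without adult colon pair 2. Without the slide that went against its labels, 2 members passed in adult small intestine (0.145% of all probes), 5 in adult colon (3.31%) and 0 over the mean (0.233%), where residual degrees of freedom are fewer. The first array of adult colon pair 1 mattered little, with 5, 11 and 7 members past the test without it, against 77, 2256 and 315 of all probes.

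The class medians took both signs over the pairs, from -0.50 to 0.16 for class I and from -0.40 to 0.37 for class II. Single probes were spread more widely in class I. The 28 class I probes had median log2 ratios of 0.03 and 0.14 in adult small intestine pairs 1 and 2, and of -0.11, -0.50 and 0.16 in adult colon pairs 1 to 3. In fetal small intestine pairs 1 to 3 they were 0.09, 0.11 and -0.29, and in fetal colon pairs 1 and 2 -0.11 and -0.23. Single class I probes reached 4.57 in adult small intestine and 4.03 in adult colon. The 13 class II probes had medians of -0.40 and 0.24 in adult small intestine, 0.04, -0.15 and 0.37 in adult colon, -0.11, -0.09 and -0.11 in fetal small intestine and -0.05 and 0.06 in fetal colon. The median of all probes tested was within 0.01 of 0 in every pair.

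**Figure D1:**
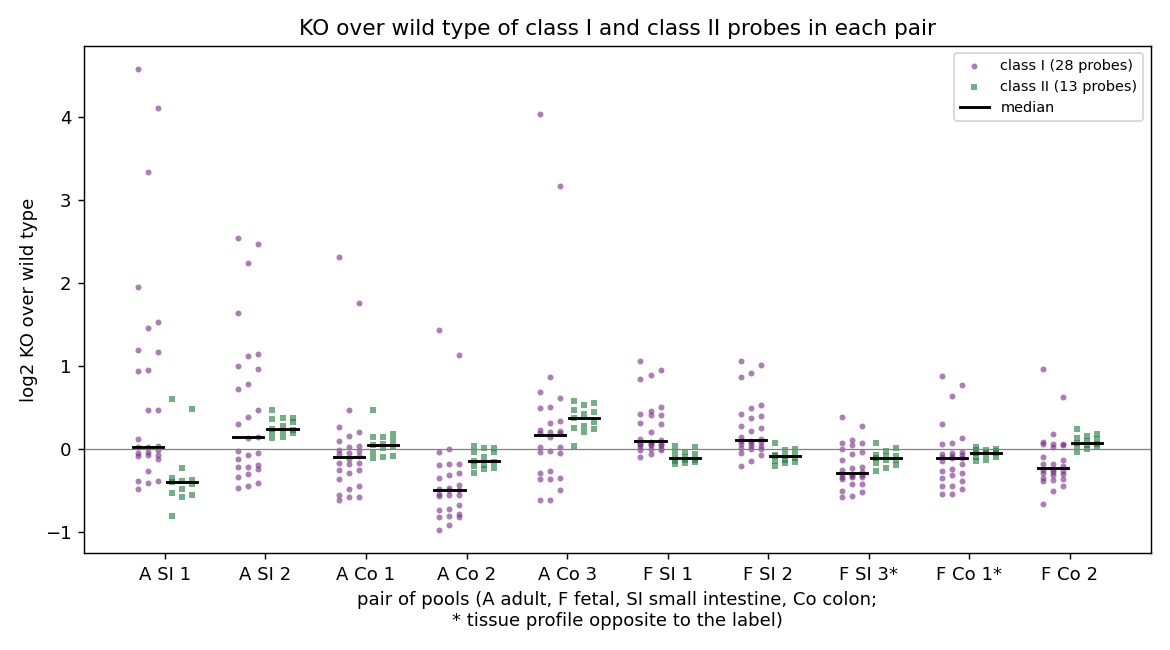
Log2 KO over wild type ratio (vertical axis) of the 28 class I and 13 class II probes in each of the 10 pairs of pools (horizontal axis), 1 point a probe, with black bars at the medians. A few class I probes reach 4.57 in adult small intestine pair 1 and 4.03 in adult colon pair 3, while class II probes other than those of H2-Oa lie close together within a pair.

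H2-Bl, a class I gene of the T region that RefSeq lists as a transcribed pseudogene, was the member with the highest KO over wild type ratios. Its 3 probes lie at chr17:35688197-35688256, chr17:35688227-35688286 and chr17:35691549-35691795 (mm8). The first and second overlap and share sequence, so they are not independent readings. With the first (A_51_P247114), log2 signal in adult small intestine was 16.86 and 16.62 in the KO pools, against 12.29 and 14.08 in the wild type pools. In adult colon it was 11.61, 10.59 and 11.45 in the KO pools, against 9.31, 9.17 and 7.41 in the wild type pools. Every KO pool lay above every wild type pool of the same adult tissue.

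In the fetal gut the differences at this probe were smaller. Fetal small intestine KO pools had 14.66, 14.70 and 10.37, against 13.61, 13.64 and 9.99 in wild type pools, and fetal colon KO pools had 14.14 and 10.62, against 13.27 and 9.66. The KO pool was the higher one in all 10 pairs. The ranges of KO and wild type overlapped in the fetal groups, each of which held pools of both tissue profiles. Pools with a small-intestine profile had high H2-Bl in both genotypes, also the pair labelled fetal colon 1.

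The H2-Bl increase was 9.72-fold at the second probe (A_52_P560113) in adult small intestine (log2 3.28 ± 0.48 SE, n = 2, limma adjusted p = 0.0346) and 6.87-fold at the third (A_52_P350519; 2.78 ± 0.31, adjusted p = 0.00883). At the first probe it was 3.55 ± 0.59, with an adjusted p of 0.0637. In adult colon the first 2 probes rose, by 6.01-fold and 4.05-fold (n = 3, adjusted p = 0.0204 and 0.0227). The third probe gave log2 ratios of 0.46, -0.19 and 0.61 in the same colon pairs, with signals of 10.72, 10.34 and 10.93 in KO pools and 10.26, 10.53 and 10.32 in wild type pools, which overlap. So the probes of H2-Bl moved alike in adult small intestine and apart in adult colon. Without the slide that went against its labels, the third probe still passed in adult small intestine (adjusted p = 0.0456) and the second did not (0.178). In adult colon the first and second probes had 0.0676 and 0.0695.

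**Figure D2:**
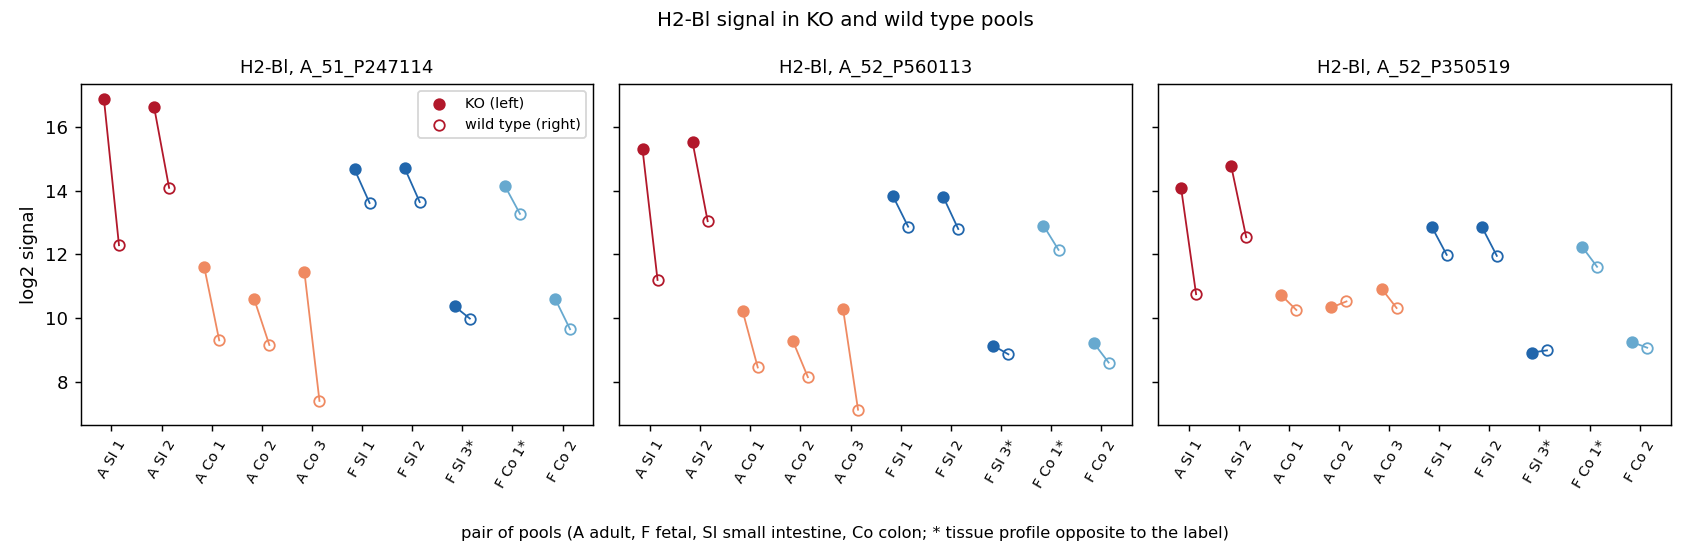
Log2 signal (vertical axis) of the 3 H2-Bl probes in the KO pool (filled, left) and the wild type pool (open, right) of each pair (horizontal axis; red adult small intestine, orange adult colon, dark blue fetal small intestine, light blue fetal colon). The KO pool is higher in all 10 pairs at the first 2 probes, and the third shows little difference in adult colon.

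A further group of class I probes was higher in the KO in adult small intestine. H2-Q10, which in the mouse liver gives a secreted class I molecule, rose at A_51_P230269 by 2.12-fold in adult small intestine (1.17 and 1.00 in the 2 pairs, adjusted p = 0.0154). The signals there were 10.92 and 10.70 in KO pools and 9.76 and 9.70 in wild type pools, without overlap. At A_52_P428354 it rose by 3.45-fold (1.94 and 1.63, adjusted p = 0.0163), and H2-Q1 rose at A_51_P425048 by 2.44-fold (1.46 and 1.12, adjusted p = 0.0428). These are non-classical class I genes of the Q region. Without the slide that went against its labels, A_51_P230269 still passed (adjusted p = 0.00688), and A_52_P428354 and the H2-Q1 probe did not (0.0526 and 0.0770).

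These 3 probes gave other values in adult colon. A_51_P230269 fell in the KO there, with ratios of -0.58, -0.50 and -0.50 (adjusted p = 0.0285), as did its neighbour on H2-Q10, A_51_P230267, with -0.45, -0.50 and -0.61 (adjusted p = 0.0233). A_52_P428354 had 0.26, -0.20 and 0.68, and the H2-Q1 probe 0.01, -0.35 and 0.31. The KO over wild type difference of A_51_P230269 was greater in adult small intestine than in adult colon by 1.61 ± 0.17 on the log2 scale (adjusted p = 0.0129; 1.00 and -0.50 in the pairs numbered 2, which shared a slide), the 1 member probe past the test in that comparison, against 0.145% of all probes. Over adult and fetal pools together, 0 members differed between small intestine and colon in this way, against 0.137% of all probes. Under an unadjusted p of 0.05 were 13 members, against 7.45% of all probes. Without the slide that went against its labels, 1 member passed.

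H2-T3, H2-D4 and H2-Q5 did not pass in any group and had a like order of values. H2-T3, which encodes the TL antigen of intestinal epithelium, had ratios of 1.52 and 1.14 in adult small intestine, 0.10, -0.56 and 0.51 in adult colon, 0.84, 0.87 and 0.10 in fetal small intestine and 0.30 and 0.08 in fetal colon. The ratios of H2-D4, a transcribed pseudogene in RefSeq, were 1.19 and 0.96 in adult small intestine and between -0.30 and 0.49 in adult colon. Those of H2-Q5, also a transcribed pseudogene, were 0.94 and 0.72 in adult small intestine and between -0.48 and 0.21 in adult colon. In fetal small intestine, pairs 1 and 2 had positive ratios for H2-Bl, H2-Q1 (A_51_P425048), H2-Q10 (A_52_P428354), H2-D4, H2-Q5 and H2-T3, between 0.37 and 1.06. In pair 3, whose tissue profile was that of colon, the same probes lay between -0.34 and 0.38. In fetal colon pair 1, whose profile was that of small intestine, they lay between -0.07 (H2-Q5) and 0.87 (H2-Bl). H2-Q1, H2-D4 and H2-Q10 had 0.05, 0.07 and 0.13 there. The part of tissue profile in these ratios was not tested.

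The probes of 1 gene often did not move together. The 5 probes named H2-Q10 spanned -0.05 to 1.79 in adult small intestine and -0.53 to 0.25 in adult colon. The 3 named H2-Q1 spanned -0.16 to 1.29 in adult small intestine. The 3 probes of H2-Bl spanned 0.29 to 2.59 in adult colon. In contrast the 3 H2-T22 probes lay between -0.45 and -0.36 in adult small intestine and between -0.60 and -0.43 in adult colon, and the 4 H2-Ab1 probes between -0.09 and 0.02 and between 0.06 and 0.10. Class I genes of the Q and T regions are close copies of each other. The accession field of H2-Q10 probe A_51_P496997 also listed H2-Q1, H2-Q6 and H2-Bl, that of the H2-Q1 probe A_51_P425048 listed H2-Q2, and that of the H2-T22 probe A_51_P432538 listed H2-T10. The gene behind such a signal is uncertain, and a difference in probe sequence between the KO and wild type chromosomes cannot be told apart from a difference in RNA. Of all 36 names, 11 had 2 or more probes tested.

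**Figure D3:**
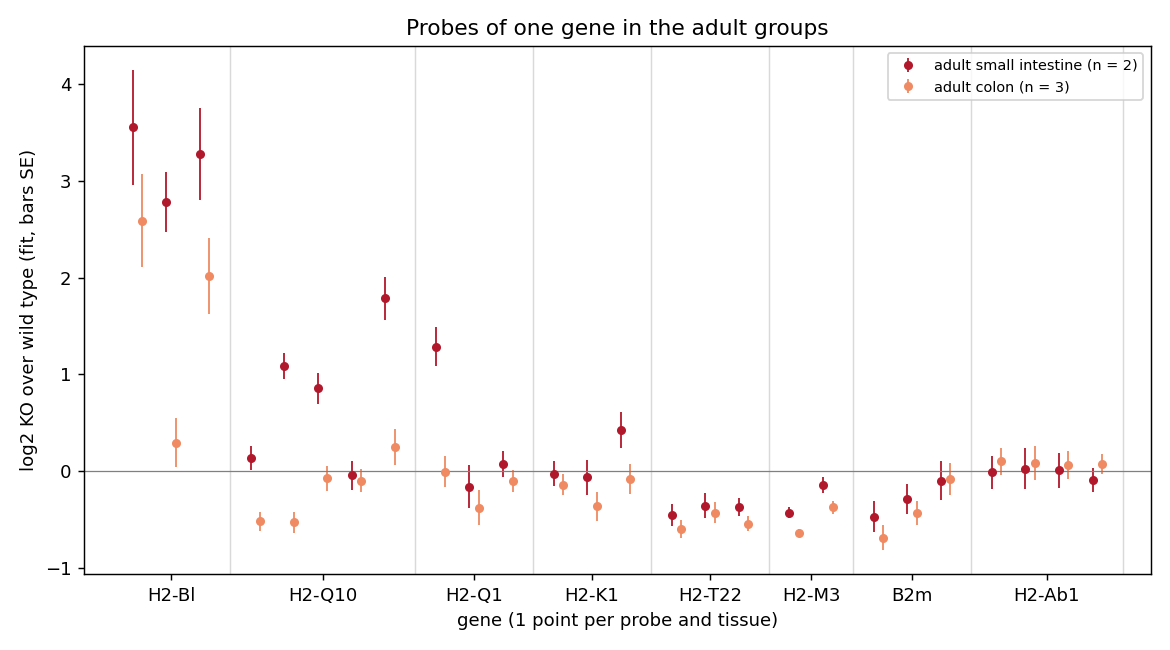
Log2 KO over wild type from the limma fit (vertical axis, bars SE) for each probe of 8 genes (horizontal axis), in adult small intestine (red, n = 2) and adult colon (orange, n = 3). Probes of H2-T22 and H2-Ab1 lie close together, while those of H2-Q10 span -0.05 to 1.79 in adult small intestine.

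Other class I probes, and B2m at 1 of its 3 probes, passed the test as lower in the KO. H2-T22, a non-classical molecule recognised by a set of gamma-delta T cells, was lower in the KO at all 3 probes in 9 of 9 replicates. At A_51_P432538 (chr17:35646506-35646565), log2 signal in adult colon was 13.07, 12.50 and 12.60 in KO pools, against 13.68, 13.32 and 12.96 in wild type pools. In adult small intestine it was 12.95 and 13.13 in KO pools, against 13.44 and 13.55 in wild type pools. The adult small intestine groups did not overlap, and those of adult colon did.

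In the fetal gut this probe was lower by less in the pairs with a small-intestine label and profile. KO pools of fetal small intestine had 11.98, 11.98 and 11.37, against 12.00, 12.03 and 11.74 in wild type pools, and those of fetal colon had 11.86 and 11.76, against 12.35 and 12.13. The ratios of A_51_P432544 were -0.41 and -0.30 in adult small intestine, -0.19, -0.74 and -0.35 in adult colon, -0.07, -0.08 and -0.34 in fetal small intestine and -0.55 and -0.26 in fetal colon. Those of A_52_P197826 were -0.40 and -0.34, then -0.48, -0.79 and -0.36, then -0.11, -0.15 and -0.23, then -0.39 and -0.21, in the same order of groups. All 3 probes fell in adult colon (by 1.51-fold, 1.35-fold and 1.46-fold; adjusted p = 0.0102, 0.0457 and 0.00871) and over the mean of the groups (by 1.34-fold, 1.27-fold and 1.27-fold; 0.00926, 0.0379 and 0.0117). Without the slide that went against its labels, the 3 adjusted p-values in adult colon were 0.0344, 0.0859 and 0.0381, so A_51_P432544 no longer passed, and those over the mean were 0.137, 0.319 and 0.179.

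H2-M3, which presents peptides with a formylated first residue, fell at A_51_P469968 (chr17:36882458-36882517) in both adult tissues. Its log2 signal in adult small intestine was 9.40 and 9.05 in KO pools, against 9.79 and 9.53 in wild type pools. In adult colon it was 8.53, 9.19 and 9.28 in KO pools, against 9.11, 9.91 and 9.90 in wild type pools. The genotypes overlapped in colon and not in small intestine, and the KO pool was the lower one of each pair.

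The fall of H2-M3 at this probe was 1.35-fold in adult small intestine (adjusted p = 0.0175, and 0.110 without the slide that went against its labels) and 1.56-fold in adult colon (log2 -0.64 ± 0.04, adjusted p = 0.000415). In adult colon it kept its call without that slide (0.00689) and without each colon pair. Ratios in the fetal gut were -0.02, 0.08 and -0.04 in small intestine and -0.27 and -0.19 in colon. The adult log2 difference minus the fetal one was -0.42 ± 0.05 (adjusted p = 0.0157), and this was the 1 member probe past the test in adult minus fetal, against 0.823% of all probes. The count was 0 without the slide, and also without adult small intestine pair 2, adult colon pair 1 or either fetal colon pair. The second probe, A_52_P490263, had -0.04 and -0.25 in adult small intestine, -0.26, -0.57 and -0.29 in adult colon, 0.02, -0.01 and -0.01 in fetal small intestine and -0.07 and 0.06 in fetal colon. It fell in adult colon (adjusted p = 0.0186), with KO signal above background on 12 of 20 arrays and wild type signal on 17. Without the slide it did not pass (0.0614).

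H2-T23 and 1 of the 3 B2m probes fell in adult colon. H2-T23 encodes Qa-1, the ligand of an inhibitory receptor of natural killer cells, and had ratios of -0.27 and -0.23 in adult small intestine and -0.55, -0.98 and -0.27 in adult colon (adjusted p = 0.0433). Its ratios were 0.10, 0.12 and -0.57 in fetal small intestine and -0.54 and -0.66 in fetal colon. B2m at A_51_P129006 had log2 signals of 12.40, 11.02 and 12.55 in adult colon KO pools, against 13.11, 12.11 and 12.82 in wild type pools, a fall of 1.61-fold (adjusted p = 0.0210). The groups overlapped and the KO pool was the lower one in each pair. Neither H2-T23 (adjusted p = 0.0627) nor B2m (0.0637) passed in adult colon without the slide that went against its labels.

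At 2 of its 3 probes, B2m ratios went with the labelled tissue in the fetal gut. The sex markers went with the same labels, and the 2 cannot be told apart. At A_51_P129006 the ratios were 0.38, 0.41 and 0.32 in fetal small intestine pairs 1 to 3 and -0.75 and -0.48 in fetal colon. Adult ratios there were -0.57 and -0.37 in small intestine and -0.70, -1.09 and -0.28 in colon. The second B2m probe (A_51_P129012) had the same signs in all 10 pairs. The third (A_52_P105594) had -0.21 and 0.01 in adult small intestine and -0.07, -0.64 and 0.48 in adult colon. Its fetal ratios were -0.13, -0.10 and 0.04 in small intestine and -0.22 and -0.08 in colon, so it did not go with the label. None of the fetal differences passed the test. The classical heavy chain H2-K1 had no probe past the test in any group. At A_52_P474242 its ratios were -0.08 and -0.05 in adult small intestine, -0.30, -0.81 and 0.01 in adult colon, 0.06, 0.09 and -0.53 in fetal small intestine and -0.45 and -0.51 in fetal colon. Of its 3 probes, 0, 1, 0 and 2 were under an unadjusted p of 0.05 in these groups, against 11.1%, 25.9%, 7.11% and 5.72% of all probes.

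**Figure D4:**
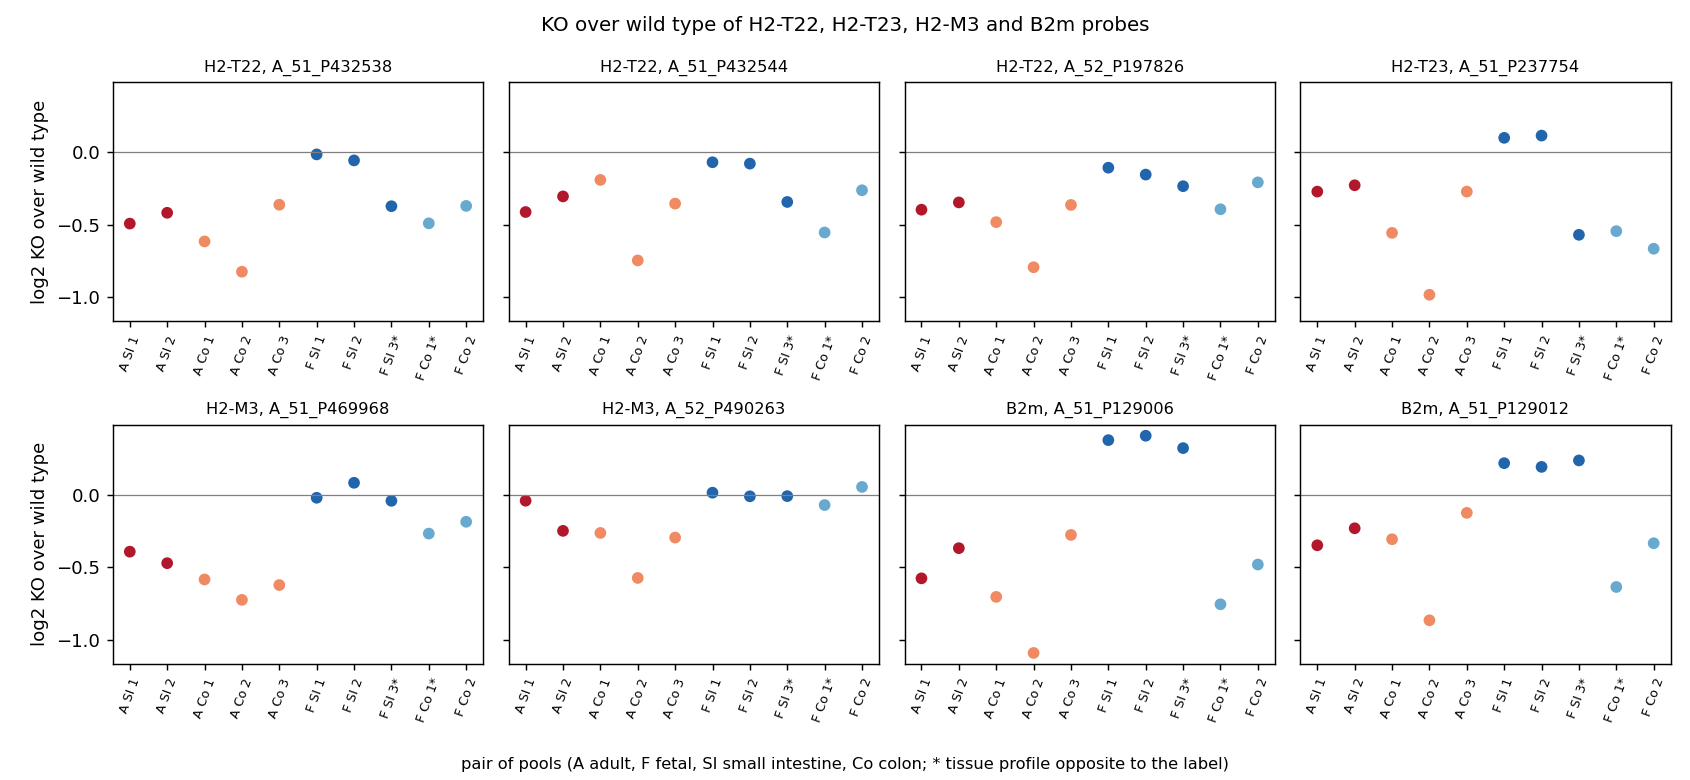
Log2 KO over wild type ratio (vertical axis) of 3 H2-T22, 1 H2-T23, 2 H2-M3 and 2 B2m probes in each pair (horizontal axis; red adult small intestine, orange adult colon, dark blue fetal small intestine, light blue fetal colon). Adult points lie below 0 in every panel, and the 2 B2m probes shown lie above 0 in the 3 pairs labelled fetal small intestine. The B2m probe not shown had adult ratios of both signs.

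The promoters of H2-M3, H2-T22, H2-T23 and B2m are shown with that of a class II gene so that their letters can be compared. Each of the former had a probe that fell in adult colon, B2m at 1 of 3 probes. Each is the 250 bases before the RefSeq start (GRCm38.p6), read 5′ to 3′ on the gene's strand. Capitals mark the letters CCAAT, the box bound by NF-Y, then TTTCACTT, a core of interferon response elements, GATTCCCC, a core of the NF-kappa-B site, and CCGGAT, an ETS core, each searched on both strands. The former are H2-M3 (chr17:37269984-37270233, plus strand), H2-T22 (chr17:36042743-36042992, minus strand), H2-T23 (chr17:36032702-36032951, minus strand) and B2m (chr2:122147437-122147686, plus strand). The class II gene H2-Aa (chr17:34287824-34288073, minus strand) did not pass the test.
H2-M3: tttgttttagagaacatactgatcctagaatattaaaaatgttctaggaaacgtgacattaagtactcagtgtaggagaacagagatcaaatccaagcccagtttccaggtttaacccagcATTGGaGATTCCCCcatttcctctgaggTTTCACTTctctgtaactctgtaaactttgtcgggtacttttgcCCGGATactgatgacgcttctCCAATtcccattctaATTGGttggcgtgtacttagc
H2-T22: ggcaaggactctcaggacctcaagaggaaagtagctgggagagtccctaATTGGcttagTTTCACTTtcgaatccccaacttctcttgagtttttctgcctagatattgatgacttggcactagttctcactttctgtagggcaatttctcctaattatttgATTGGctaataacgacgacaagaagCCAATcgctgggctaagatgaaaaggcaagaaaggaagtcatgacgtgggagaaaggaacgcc
H2-T23: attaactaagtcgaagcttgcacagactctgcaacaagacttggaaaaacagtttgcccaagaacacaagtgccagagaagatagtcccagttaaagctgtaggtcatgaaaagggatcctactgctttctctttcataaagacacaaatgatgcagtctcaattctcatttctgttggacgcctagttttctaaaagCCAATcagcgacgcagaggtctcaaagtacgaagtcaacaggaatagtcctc
B2m: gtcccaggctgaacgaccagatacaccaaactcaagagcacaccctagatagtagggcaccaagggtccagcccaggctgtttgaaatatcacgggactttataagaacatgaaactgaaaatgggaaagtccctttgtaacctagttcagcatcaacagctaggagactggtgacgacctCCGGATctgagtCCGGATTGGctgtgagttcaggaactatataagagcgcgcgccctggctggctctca
H2-Aa: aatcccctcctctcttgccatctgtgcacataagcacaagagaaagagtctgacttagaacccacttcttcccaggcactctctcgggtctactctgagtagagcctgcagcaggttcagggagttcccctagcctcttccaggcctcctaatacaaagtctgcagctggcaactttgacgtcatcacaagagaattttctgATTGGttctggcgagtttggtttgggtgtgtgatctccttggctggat

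H2-M3 held all 4 sets of letters, H2-T23 only CCAAT, and B2m only CCGGAT and CCAAT, which overlap in 1 place on opposite strands. Promoters in the RefSeq table covered 27 of the 36 member genes, and H2-Bl, H2-Q1 and Cd74 were among those not matched. CCAAT stood in 33.8% of all 32851 promoters and in 23 of the 27, among them 15 of 17 class I and 6 of 7 class II promoters. TTTCACTT stood in 1.36% of all promoters and in 6 class I promoters (H2-K1, H2-M3, H2-Q7, H2-Q10, H2-T3 and H2-T22), which include genes that were higher and genes that were lower in the KO. GATTCCCC stood in 0.752% of all promoters and in those of H2-K1 and H2-M3, and CCGGAT in 4.94% and in those of B2m and H2-M3. A match describes letters only and names no site in use.

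Class II genes gave 0 of 13 probes past the limma test in each of the 4 groups and over their mean, with at most 2 under an unadjusted p of 0.05. H2-Ab1, the beta chain of I-A, had ratios at A_52_P683598 of -0.39 and 0.20 in adult small intestine, 0.06, -0.04 and 0.20 in adult colon, -0.17, -0.17 and -0.27 in fetal small intestine and -0.07 and 0.12 in fetal colon. H2-Aa, the alpha chain of I-A, had -0.54 and 0.13, then 0.10, -0.29 and 0.44, then -0.10, -0.07 and -0.11, then -0.15 and 0.15 at A_52_P343306, in the same order. Adult pairs had both signs for each chain.

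H2-Eb1, the beta chain of I-E, ranged from -0.24 to 0.27 over the 10 pairs. Its partner H2-Ea, which several H-2 haplotypes do not express and RefSeq lists as a transcribed pseudogene, was above background on 0 of 20 arrays in either genotype. Cd74, the invariant chain, had -0.58 and 0.23 in adult small intestine, 0.17, -0.21 and 0.32 in adult colon, -0.15, -0.14 and -0.14 in fetal small intestine and -0.02 and 0.24 in fetal colon. The class II chains and Cd74 thus had the same sign within each adult small intestine pair and opposite signs between the 2 pairs. The loading factors H2-DMa and H2-DMb1 had -0.48 and 0.36, and -0.81 and 0.14, in adult small intestine. H2-Oa, a chain of the DO inhibitor found mainly in B cells, had positive ratios at both probes in all 5 adult pairs, between 0.01 and 0.59, and did not pass.

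Markers of leukocytes were set beside these values. Of 3 pan-leukocyte markers (Ptprc, Laptm5 and Coro1a), 1 rose in adult colon, Coro1a, an actin regulator (log2 0.52, adjusted p = 0.00923), and none passed in another group (1 under an unadjusted p of 0.05 in adult small intestine). Their median ratio was 0.30 and 0.18 in adult small intestine and 0.28, 0.14 and 0.69 in adult colon, and between -0.09 and 0.08 in the fetal pairs. Their median log2 signal was 9.75 to 11.29 in adult KO pools and 9.87 to 10.99 in adult wild type pools. Of 7 macrophage markers, 1 rose in adult colon (C1qa, a complement subunit, 0.23, adjusted p = 0.0171), with a list median of 0.13 there and 0.08 in adult small intestine. Of 5 dendritic cell markers 3 were tested, and 1 rose in adult colon (Itgax, the integrin CD11c, 0.24, adjusted p = 0.0177), with list medians of 0.04 there and -0.04 in adult small intestine. None of 8 T cell markers and none of 3 plasma cell markers passed in any group (limma), with 1 and 0 under an unadjusted p of 0.05 in adult colon and 2 and 0 in adult small intestine. Of all probes, 7.88% passed in adult colon, so 1 call in so short a list says little about it. Under an unadjusted p of 0.05 were 25.9% of all probes there and 11.1% in adult small intestine. The part of leukocytes in the class II values was not tested.

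The interferon-response list, 26 genes all tested, had a median of the same sign as B2m probe A_51_P129006 in 9 of 10 pairs. B2m probe A_52_P105594 had the other sign in adult small intestine pair 2 and in fetal small intestine pairs 1 and 2, which count as 1 replicate. The list's median ratios were -0.17 and -0.18 in adult small intestine and -0.19, -0.66 and 0.06 in adult colon. In the fetal gut they were 0.22, 0.19 and 0.04 in small intestine and -0.55 and -0.26 in colon. Cxcl9, an interferon-gamma-induced chemokine, fell in adult small intestine (-0.39, limma adjusted p = 0.0346). Irf9, a subunit of the interferon-activated factor ISGF3, fell in fetal colon (-0.46, adjusted p = 0.0439). Pair 1 of that group came from the slide that went against its labels. The part of interferon signalling in the class I values was not tested. Of 24 antigen-processing genes, 23 were tested, with a median of 0.01 in each adult tissue. Calr, a chaperone of class I folding, and Rfxank, a subunit of the RFX factor at MHC promoters, rose in adult colon (0.23 and 0.26), and Ctss, the protease that trims Cd74, fell (-0.40). So 2 of 23 rose and 1 fell there, where 7.88% of all probes passed. These calls say little about the list as a whole. The C2ta probe on chromosome 16, which RefSeq names Ciita, had ratios between -0.20 and 0.32 over the 10 pairs.

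Distance from Spdef was set beside the calls, since no strain was given. Of other chromosome 17 probes, 19.2% passed in adult colon within 5 Mb of Spdef, 10.1% at 5 to 10 Mb, where the members lie, 15.1% at 10 to 20 Mb and 8.4% beyond, against 7.61% on other chromosomes. In adult small intestine the shares were 2.85%, 0.388%, 2.29% and 0.56%, against 0.288% on other chromosomes. Over the mean of the groups they were 10.7%, 2.33%, 8.72% and 2.52%, against 1.09%. In all 3, the shares in every chromosome 17 window were above those on other chromosomes, and the highest share was within 5 Mb of Spdef. The part of linked chromosome 17 sequence in the member calls was not tested.

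In wild type gut, MHC genes were higher in the adult than in the fetus. Over both tissues, 25 of 46 member probes were higher in adult wild type pools and 1 was lower, against 20.6% of all probes past the test. All 13 class II probes were higher in the adult, with a median difference of 1.93 on the log2 scale. Of 28 class I probes 11 were higher, with a median of 0.98, and of the 3 B2m probes 1 was. The median over all probes was -0.01. Without the slide that went against its labels, 25 were higher and 2 lower (15.4% of all probes), and without the first array of adult colon pair 1, 30 were higher and 1 lower (37.2%). Stage and slide overlapped here, and 1 slide held both stages of 1 tissue. On it, adult colon pair 3 exceeded fetal colon pair 2 by 3.51 for Cd74 and 3.16 for H2-Ab1 (A_52_P683598).

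By tissue the counts were less stable. In small intestine, 13 members were higher in the adult (8 class II, 4 class I and 1 B2m), against 7.31% of all probes. There were 7 higher and 2 lower without the slide (5.11%), 24 higher and 1 lower without the array (21.3%), and 0 without either adult small intestine pair or fetal small intestine pair 3. Leaving out adult colon pair 2 gave 7, and adult colon pair 3 gave 2. In colon, only 1 H2-T22 probe was higher in the adult, against 8.03% of all probes, with 15 higher without the slide (7.59%) and 8 without the array (20.3%). Leaving out fetal colon pair 1 gave 2, and leaving out either adult small intestine pair, fetal small intestine pair 1 or 3, adult colon pair 2 or fetal colon pair 2 gave 0.

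Cd74 had wild type log2 signals of 13.83 and 13.38 in adult small intestine, against 11.60, 11.68 and 9.01 in fetal small intestine. In adult colon they were 12.79, 12.23 and 12.76, against 11.23 and 9.25 in fetal colon. The lowest adult pool lay above the highest fetal pool, and the lowest fetal values were those of the pools with a colon profile. H2-Ab1 at A_52_P683598 had the same order, with 14.58 and 14.00 against 11.87, 11.96 and 9.72 in small intestine and 13.07, 12.41 and 12.82 against 11.95 and 9.65 in colon. Over both tissues Cd74 was higher in the adult by 2.82 ± 0.60 (adjusted p = 0.0179) and H2-Ab1 at that probe by 2.72 ± 0.59 (0.0186). Class I H2-T23 was higher by 1.80 ± 0.30 (0.00778) and H2-K1 at A_52_P474242 by 1.86 ± 0.37 (0.0142). Without the slide that went against its labels, these 4 differences were 2.66, 2.75, 1.96 and 1.97.

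At 2 of its 5 probes, H2-Q10 ran the other way in pools with a small-intestine profile. At A_51_P230269 wild type signals were 9.76 and 9.70 in adult small intestine, against 13.28 and 13.30 in fetal small intestine pairs 1 and 2, 9.88 in pair 3 and 13.52 in fetal colon pair 1. Without the slide that went against its labels it was lower in adult small intestine by 3.57 (log2 -3.57, adjusted p = 0.00566), and A_51_P230267 by 3.87 (log2 -3.87, 0.00217). With that slide the differences were -1.86 and -2.36 and did not pass (0.441 and 0.307). These were the 2 members lower in adult small intestine without the slide. The other H2-Q10 probes had positive differences, of 1.57 at A_51_P496997, 1.91 at A_52_P112219 and 1.33 at A_52_P428354 (0.89, 1.33 and 0.31 without the slide), and did not pass.

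Some members had unlike signals in wild type adult colon and adult small intestine, but with all pools only 1 passed the test. H2-Bl (A_51_P247114) was at 9.31, 9.17 and 7.41 in adult colon and at 12.29 and 14.08 in adult small intestine, and H2-T3 at 8.55, 8.80 and 8.14 in adult colon and 10.67 and 11.18 in adult small intestine. Neither gene's groups overlapped at these probes, and pair 2 of each tissue, which shared a slide, had the same order. The second H2-Bl probe, which overlaps the first, differed by log2 -4.20. The third (A_52_P350519) differed by less, log2 -1.28 (limma adjusted p = 0.557). Its signals were 10.26, 10.53 and 10.32 in adult colon and 10.76 and 12.54 in adult small intestine. With all pools 1 member (H2-DMa, log2 -2.25, adjusted p = 0.0340) was lower in colon and 0 higher, against 2.73% of all probes. Without the slide, 13 were lower and 0 higher, against 7.64%, among them H2-Bl (log2 -4.56, adjusted p = 0.0186) and H2-T3 (-2.43, 0.00468). With all pools, H2-Bl at A_51_P247114 and H2-T3 did not pass (limma adjusted p = 0.146 and 0.343).

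**Figure D5:**
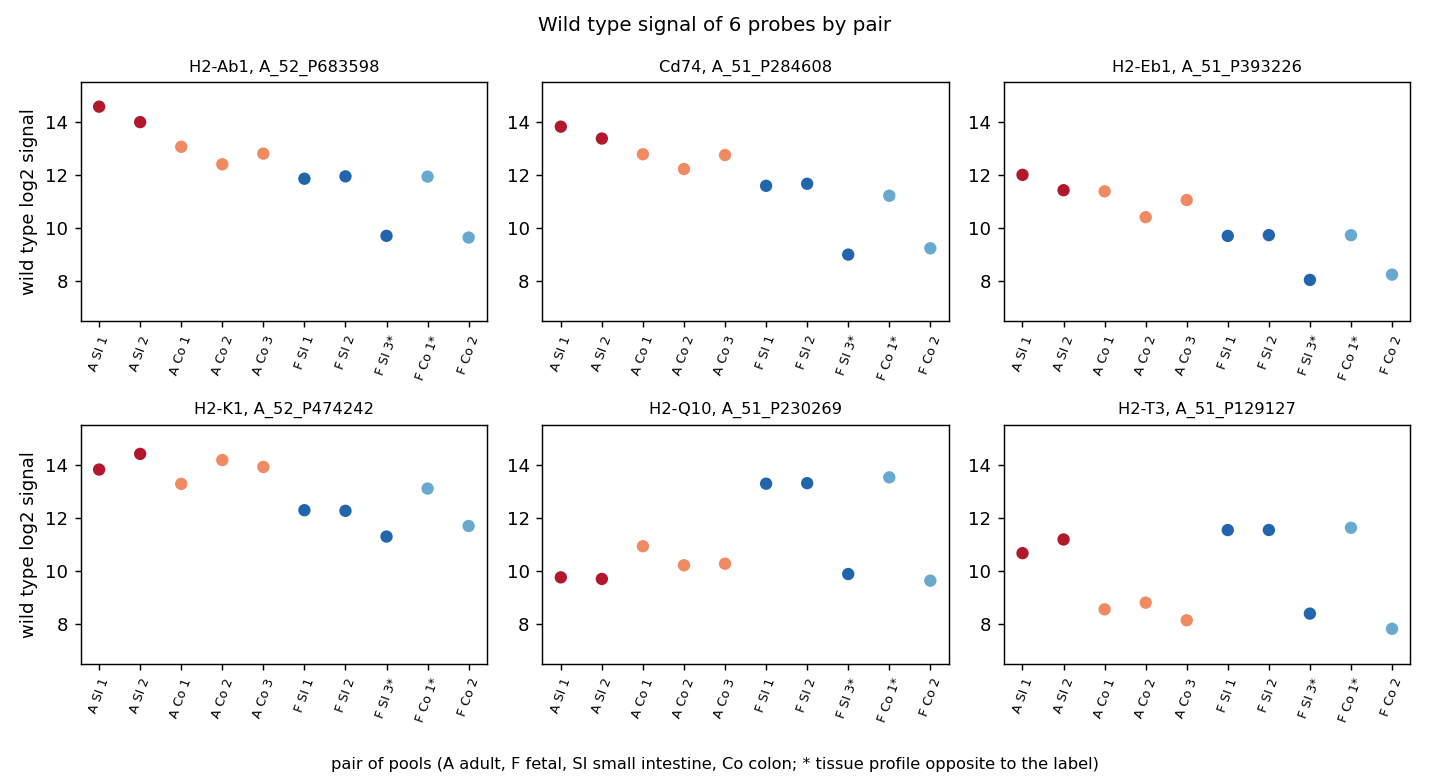
Wild type log2 signal (vertical axis) of 6 member probes in each pair (horizontal axis; red adult small intestine, orange adult colon, dark blue fetal small intestine, light blue fetal colon). Cd74, H2-Ab1 and H2-Eb1 are higher in adult pools, and the H2-Q10 probe A_51_P230269 is highest, at 13.28 to 13.52, in the fetal pools with a small-intestine profile.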

How the data were processed

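Arrays were read with Agilent Feature Extraction 9.5.3, per the file headers, and each deposited file lists red and green mean signals and local backgrounds as linear intensities. It also has the scanner's own ratio, deposited as log10 of Cy5 over Cy3. The authors' series table gives, per probe, log2 of the KO signal over wild type. Coordinates are of build mm8. Signals were background-corrected (normexp, offset 50) and normalized within arrays by loess in limma 3.58.1 under R 4.3.3, with control spots at weight 0 and outlier spots left out. Signs were turned to KO over wild type, and the 2 arrays of each pair of pools were averaged. One limma fit per probe held the 9 replicates with 1 coefficient for each group (residual df 5), two-sided, with Benjamini-Hochberg adjustment over 24896 probes and a threshold of 0.05. Wild type and KO signals are log2 values after loess and Aquantile scaling. Errors printed as ± are limma standard errors. The number of arrays limits the precision, and p-values measure the spread between pools, which may be technical. Promoters came from RefSeq. The fit was tested on simulated data. The members, gene lists and the rule for values by pair (marker genes, probes past the test and a core panel) were chosen with earlier results of these data known. Which fetal small intestine pairs count as 1 replicate was decided after seeing the data. Alternatives varied background, normalization, filter, probe choice, prior, slide, pairing and replicates. One marker list is not reported here.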

Additional observations from a re-analysis of the deposited data

Results flagged for a closer look

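The change of H2-M3 (A_51_P469968) differed between stages, with an adult minus fetal log2 KO over wild type difference of -0.42. That of H2-Q10 (A_51_P230269) differed between the adult tissues, with adult small intestine minus adult colon at 1.61. Both differences passed the limma test of the difference itself.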

How the results depend on the processing

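Over 25 probe results and 560 alternative values of them, 356 kept direction and side of the threshold, 204 kept direction and no longer passed, and 0 reversed. Median class I and class II ratios moved by less than the spread between replicates. Of 46 member probes, 6 passed in adult small intestine and 11 in adult colon, 0 in either fetal group, 7 over the mean and 1 in the differences (adult minus fetal or small intestine minus colon). Counts with no name are in the order adult small intestine, adult colon, mean, differences. For most of these settings it was not counted how many of all probes passed. A general gain or loss of calls therefore cannot be told apart from one of the members. Scanner-processed signals gave 3 in adult small intestine and 0 in the differences. Median centring gave 2 (adult small intestine), 3 (adult colon) and 3 over the mean. The strict filter gave 0 in the differences. The brightest probe of each gene, which tests fewer probes, gave 1, 4 and 3. Groups fitted alone gave 0, 3 and, in fetal colon, 7. Counting every array gave 13 in adult small intestine, 4 in fetal colon, 17 over the mean and 16 in the differences. A trended robust prior gave 1, 6, 0 over the mean and 0 in the differences. The deposited table gave 0, 1, 3 and 0. Fetal small intestine pairs 1 and 2 counted separately gave 11 over the mean and 3 in the differences. Leaving out the slide that went against its labels gave 2, 5 and 0 over the mean. Leaving out 1 replicate gave 0 to 9 (adult small intestine), 1 to 10 (adult colon), 0 to 0 (both fetal groups), 1 to 11 over the mean and 0 to 3 in the differences, and medians of -0.08 to -0.04 (class I) and -0.11 to 0.07 (class II). The lone sample left is then assumed to vary like the other groups. For wild type stages (13 member probes in small intestine, 1 in colon), no filter gave 3 and 0, separate fetal pairs 23 and 2, the slide left out 15 in colon, the first array of adult colon pair 1 left out 25 and 8, and 1 replicate left out 0 to 18 and 0 to 2. Beyond fewer samples or probes, the cause was not tested. Replicate numbers did not pair the pools. Deviations correlated at -0.0418 to 0.158 for equal numbers and -0.158 to 0.158 for others. With the replicate block, 3 member probes passed in adult colon, 1 over the mean, 2 in the differences, and 3 and 2 in the wild type tissues. The alternatives without the first array of adult colon pair 1 were chosen after seeing the data. H2-M10.2 and H2-T24 were well above background on some arrays and not on others, which limits what they can show.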

Other observations

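A further 3 non-classical class I genes beyond those described did not pass in any group. H2-Q7, which encodes Qa-2, had log2 KO over wild type ratios of -0.09 and -0.03 in adult small intestine, -0.25, -0.68 and 0.03 in adult colon, 0.08, 0.06 and -0.43 in fetal small intestine and -0.45 and -0.38 in fetal colon. H2-Q2 had 0.47 and 0.29 in adult small intestine and -0.18, -0.82 and -0.05 in adult colon. Its fetal pairs had 0.30, 0.25 and -0.43 (small intestine) and -0.29 and -0.45 (colon). H2-Q8 had ratios of both signs in each adult tissue, from -0.18 to 0.87. The neighbours that encode no MHC chain stayed close to 0. H2-Ke2, named Pfdn6 in RefSeq and encoding a prefoldin subunit, lay between -0.09 and 0.15 over the 10 pairs, and H2-Ke6 between -0.15 and 0.14. In wild type pools H2-Ke6 was the 1 member lower in the adult over both tissues (log2 -0.88, limma, adjusted p = 0.0386, and 0.0627 without the slide that went against its labels).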
